A study of Mus musculus with 5 samples.

Results

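Claudins and tight junction genes were followed in mouse colon away from tumours, in villin-TLR4 mice and their wild-type (WT) littermates. The set held 9 genes: the claudins Cldn2, Cldn3, Cldn4, Cldn7, Cldn8, Cldn15 and Cldn23, occludin (Ocln) and ZO-1 (Tjp1). They were found by matching the RefSeq accession of each probe to these symbols, which gave 12 probes among 35078 gene probes on the array. All 9 had a probe that the scanner software found on every array, out of 15051 genes or unnamed probes that could be tested. The groups were 2 villin-TLR4 samples (1 female, 1 male, 1.5% dextran sulfate sodium, DSS) and 3 WT littermate samples (all female, 3% DSS), on a C57Bl6 background and 10 weeks old at the start. All samples came from mice injected with azoxymethane (AOM), a colon carcinogen, at 7.4 mg/kg. DSS, which injures the colonic epithelium, followed in 2 cycles, and tissue was taken at day 56. TLR4 senses lipopolysaccharide of bacteria, and a villin promoter directs a transgene to the epithelial cells of the intestine. DSS concentration followed genotype, so the effects of both cannot be told apart, and the sole male was villin-TLR4 replicate 2.

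Tight junctions seal the space between neighbouring epithelial cells near their apical side. Claudins are membrane proteins that form the strands of the junction, and the mix of claudins sets which ions and how much water pass between cells. Cldn2 and Cldn15 form channels for small cations, while Cldn3, Cldn4, Cldn7 and Cldn8 are mostly counted as sealing claudins. Ocln is another membrane protein of the strands, and Tjp1 is a scaffold that ties them to the actin cytoskeleton. In the inflamed colon Cldn2 is known to become more abundant, and several sealing claudins less so.

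No member of the set passed the test between genotypes. With limma and Benjamini-Hochberg adjustment over all genes, 0 of the 9 had an adjusted p under 0.05, where 0% of the 15051 genes or unnamed probes passed. At an unadjusted p under 0.05 there was 1 member, Cldn23, higher in villin-TLR4, against 2.7% of all genes in that direction and 2.15% in the other. Cldn23 and Cldn3 were higher on both villin-TLR4 arrays than on all 3 WT littermate arrays, so 2 of 9 did not overlap in that direction, against 12.6% of the 14605 genes measured on every array. No member lay lower without overlap, against 12.9% of all genes. The means of 7 of 9 members were higher in villin-TLR4 (50.9% of all genes), with a median difference of 0.08 on the log2 scale against 0.01 over all genes. Values below are log2 normalised intensities, and each difference subtracts the WT littermate mean from the villin-TLR4 mean, with the standard error (SE) of the fit. Levels of different probes cannot be compared with each other.

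**Figure D1:**
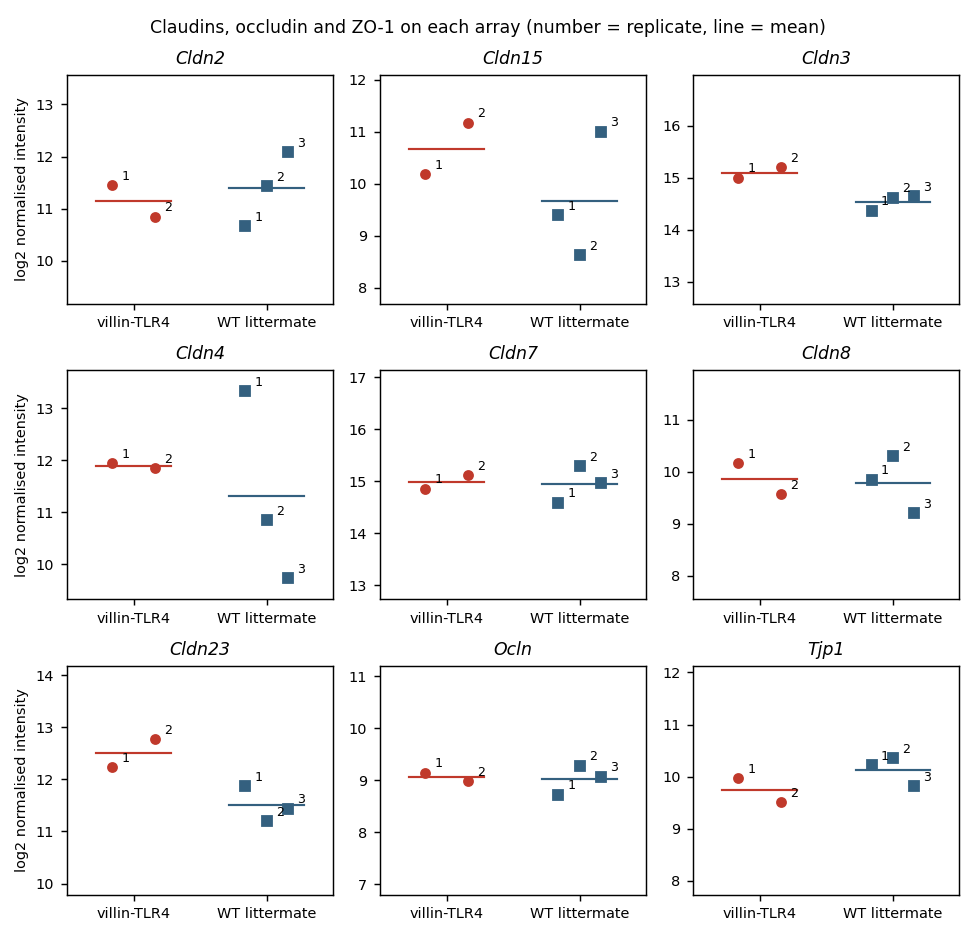
Each panel shows 1 gene, with the log2 normalised intensity of each array on the y axis (all panels span the same number of log2 units), the replicate number beside each point and the group mean as a line. Cldn23 and Cldn3 separate the genotypes, Cldn4 and Cldn15 spread widely among the WT littermate arrays, and Ocln and Cldn7 vary least.

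Replicate 1 of the WT littermates differed from the rest. Summed over 6 neutrophil genes, the villin-TLR4 arrays had signals of 2202 and 1661, while WT littermate replicate 1 had 37843 and the other WT littermates 1162 and 850. The scanner software found 13352 gene probes on it and 16380 to 19509 on the rest. On this array 1240 spots were marked as bad, against 0 to 4 on the rest. Before normalisation, the upper quartile of its found gene probes over background was 590, against 926 to 1319 on the rest. Across genes this array correlated with the others at 0.885 to 0.895. Of 10 epithelial markers 9 were measured, all found on every array. They summed to 197751 and 178652 in villin-TLR4 samples, against 155791 to 202068 in WT littermates. Taken singly, 2 of the 9 were lower in villin-TLR4 without overlap, Epcam (-0.53) and Krt20 (-0.81), against 12.9% of all genes. Elf3 (0.35) was higher without overlap, 1 of 9 against 12.6% of all genes. In whole tissue, fewer cells of a type and less RNA per cell cannot be told apart.

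Among the pore-forming claudins, Cldn2 makes a cation and water pore, and its gene lies on the X chromosome. Its probe mMR029342 read 11.45 and 10.84 in villin-TLR4, against 10.67, 11.43 and 12.08 in WT littermates. WT littermate replicates 3 and 1 were the highest and the lowest array, and the villin-TLR4 arrays lay between them. Cldn2 averaged 11.15 ± 0.43 in villin-TLR4 and 11.39 ± 0.71 in WT littermates (SD, n = 2 and 3), giving a difference of -0.25 ± 0.45 (SE; limma adjusted p = 0.917) with a 95% interval of -1.33 to 0.84. The interval therefore holds a change of up to 1.33 downwards and 0.84 upwards. A second Cldn2 probe, mMC010824, was not found on any array and gives no value. The sign of the Cldn2 difference turned without villin-TLR4 replicate 2, the male (0.06), or WT littermate replicate 3 (0.10).

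Cldn15, the other cation pore, is best known from the small intestine. Its brighter probe mMC010316 read 10.18 and 11.17 in villin-TLR4, against 9.39, 8.62 and 10.999 in WT littermates. Both villin-TLR4 arrays were above WT littermate replicates 1 and 2, while WT littermate replicate 3 reached the level of villin-TLR4 replicate 2. The second probe, mMA032504, kept the separation of those 2 arrays from the rest and gave a difference of 0.91, beside 1.0 for the brighter probe. Cldn15 averaged 10.67 ± 0.70 in villin-TLR4 and 9.67 ± 1.21 in WT littermates, giving a difference of 1.0 ± 0.70 (SE; limma adjusted p = 0.87). Its span over the 5 arrays was 2.55, wider than that of 96.6% of genes, and nearly all of it lay between WT littermate arrays. The difference ranged from 0.48 without WT littermate replicate 2 and 0.50 without villin-TLR4 replicate 2 to 1.67 without WT littermate replicate 3. Of 10 small intestinal markers 7 were measured, summing to 1455 and 1311 for villin-TLR4, against 7681, 4176 and 9983 for WT littermate replicates 1 to 3. Among WT littermates, Cldn15 was highest on replicate 3, where this sum was highest. The mean log2 level of these markers was close on WT littermate replicates 3 and 1 (9.31 and 9.25), and Anpep, Fabp6, Gata4 and Rbp2 were higher on replicate 1. Of the 7, 2 (Apoa1 and Apoa4) were lower on both villin-TLR4 arrays than on every WT littermate array, against 12.9% of all genes. Anpep, Fabp2, Fabp6, Gata4 and Rbp2 overlapped between the genotypes. In villin-TLR4, where the summed small intestinal signal was lowest, Cldn15 was also high. The part of this signal in the Cldn15 values was not tested. Exocrine pancreas genes, 9 of 12 measured, moved further. Of the 9, 8 were lower on both villin-TLR4 arrays than on every WT littermate array, against 12.9% of all genes. Their median difference was -2.49. Cela2a, Cpa1, Cuzd1 and Pnlip were found on no villin-TLR4 array, and Cel and Ctrb1 on 1 each, so this size rests on values near the floor. The mean log2 level of the 9 genes was 7.58 and 7.61 for villin-TLR4, against 8.42, 9.72 and 12.32 for WT littermate replicates 1 to 3. The highest value was on WT littermate replicate 3, the array where Cldn2 was highest and Cldn15 highest among WT littermates, and the part of this signal in both was not tested.

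The bases upstream of these genes are shown because Cldn4, Cldn15 and Cldn2 varied more over the arrays than most genes, and Cldn3, the direct neighbour of Cldn4 on chromosome 5 with 0 annotated genes between them, separated the genotypes. Of the 9 members 7 had a promoter in the RefSeq table of build GRCm38.p6, and each line gives the 250 bases before the annotated start, 5′ to 3′ on the gene's strand. Capitals mark matches, on either strand, to any of 6 motifs: AP-1 (TGANTCA), CDX (TTTATG), STAT (TTCNNNGAA), the Snail E-box (CAGGTG), GRHL (AACNGGTT) and the TATA box (TATAAA).
Cldn2, chrX:139800558-139800807, + strand: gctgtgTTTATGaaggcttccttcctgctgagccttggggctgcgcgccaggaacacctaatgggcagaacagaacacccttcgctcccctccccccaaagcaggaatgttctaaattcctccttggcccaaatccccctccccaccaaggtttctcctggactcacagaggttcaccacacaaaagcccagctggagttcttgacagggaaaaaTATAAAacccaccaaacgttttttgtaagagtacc
Cldn15, chr5:136967619-136967868, + strand: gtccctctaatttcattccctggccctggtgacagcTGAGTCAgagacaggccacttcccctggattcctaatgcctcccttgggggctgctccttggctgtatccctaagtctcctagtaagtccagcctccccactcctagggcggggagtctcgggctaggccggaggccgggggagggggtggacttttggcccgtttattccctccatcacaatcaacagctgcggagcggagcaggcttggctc
Cldn4, chr5:134946935-134947184, - strand: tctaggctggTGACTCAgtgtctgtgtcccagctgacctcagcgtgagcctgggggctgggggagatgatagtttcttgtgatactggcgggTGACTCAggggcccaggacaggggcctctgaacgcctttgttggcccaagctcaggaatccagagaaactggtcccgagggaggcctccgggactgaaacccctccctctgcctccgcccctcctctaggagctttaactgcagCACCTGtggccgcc
Cldn3, chr5:134985964-134986213, + strand: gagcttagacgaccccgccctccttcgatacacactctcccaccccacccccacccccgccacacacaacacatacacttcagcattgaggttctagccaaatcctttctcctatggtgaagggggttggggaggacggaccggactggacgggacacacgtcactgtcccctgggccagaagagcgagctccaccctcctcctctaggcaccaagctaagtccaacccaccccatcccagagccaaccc

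In the Cldn2 window the CDX match began 244 bases and the TATA box 35 bases before the start. CDX is the motif of the intestinal homeobox factors, and 10.8% of 32851 such windows held it, while 12.4% held the TATA box. Cldn15 had an AP-1 match 214 bases before the start. Cldn4 had 2 AP-1 matches, 240 and 158 bases before the start, and a Snail E-box at 14 bases. AP-1 matches stood in 6.75% of all windows and the Snail E-box in 17.2%. In the Cldn3 window none of the 6 motifs was found. Among the other members, Cldn7 and Ocln each had an annotated start with 2 Snail E-boxes upstream, and Tjp1 had none of the motifs. STAT matches stood in 7.02% of all windows and GRHL matches in 1.79%, and among the members only Cldn7 had the first and none had the second. A match is a description of the letters and not a binding site.

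Among the sealing claudins, Cldn4 varied most. It is a claudin of tight epithelia and of the surface epithelium of the colon. Its single probe mMC023560 read 11.94 and 11.85 in villin-TLR4, against 13.33, 10.85 and 9.73 in WT littermates. The villin-TLR4 arrays were close to each other, above WT littermate replicates 2 and 3 and well below replicate 1. The span of 3.59 was wider than that of 98.9% of genes. Cldn4 averaged 11.89 ± 0.06 in villin-TLR4 and 11.30 ± 1.84 in WT littermates, giving a difference of 0.59 ± 0.96 (SE; limma adjusted p = 0.906). It was 1.53 without WT littermate replicate 1 and -0.20 without WT littermate replicate 3, so the direction rests on single arrays. From high to low the arrays ran in the same order for Cldn4 as for the mean of the 6 measured neutrophil genes: WT littermate replicate 1, villin-TLR4 replicates 1 and 2, and WT littermate replicates 2 and 3. The neutrophil means were 8.09 and 7.83 in villin-TLR4 and 11.19, 7.43 and 6.93 in WT littermates. The other 4 of 10 neutrophil markers, Cxcr2, Mmp8, Camp and Ngp, were found on fewer than 2 arrays, and the part of these cells in the Cldn4 values was not tested.

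**Figure D2:**
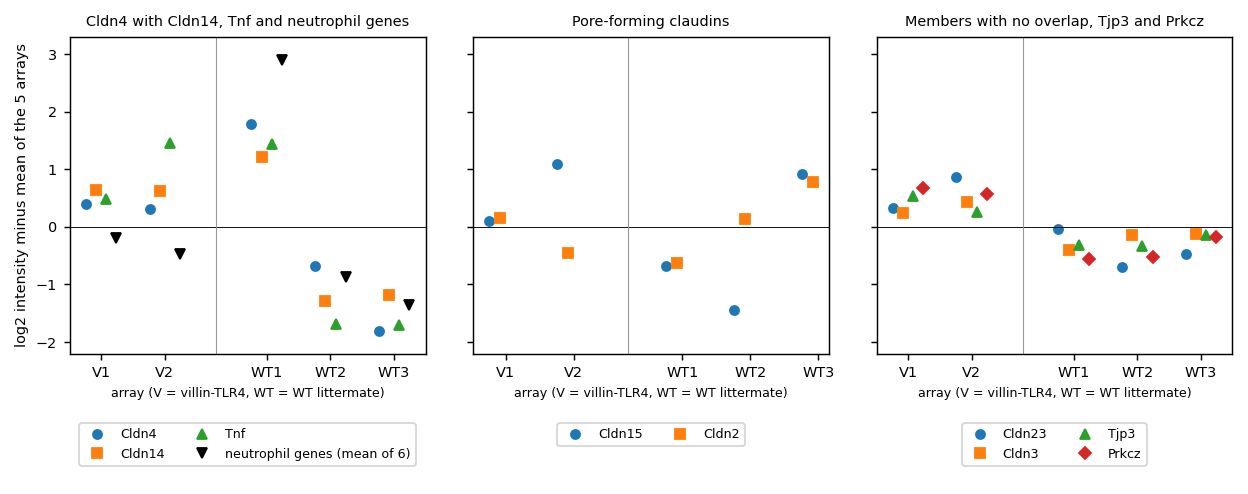
Points give the log2 intensity of each gene on each array minus its mean over the 5 arrays, with villin-TLR4 arrays (V1, V2) left of WT littermate arrays (WT1 to WT3). Left, Cldn4, Cldn14, Tnf and the neutrophil mean are highest or near highest on WT1 and low on WT2 and WT3; middle, Cldn15 and Cldn2 are both high on WT3 and differ on V2; right, Cldn23, Cldn3, Tjp3 and Prkcz are higher on both V arrays than on all WT arrays.

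Cldn3 did not overlap between the genotypes in the main normalisation. Its probe mMC007576 read 14.997 and 15.20 in villin-TLR4, against 14.37, 14.62 and 14.64 in WT littermates. Both genotypes were tight, and the gap between the nearest arrays was larger than the spread within either. Cldn3 averaged 15.10 ± 0.14 in villin-TLR4 and 14.54 ± 0.15 in WT littermates, giving a difference of 0.56 ± 0.23 (SE; 1.47-fold; limma unadjusted p = 0.053, adjusted p = 0.87). This is a bright probe, and its value depended on the scaling. The scanner read a foreground of 36452 and 27091 in villin-TLR4 and 16805, 25464 and 33312 in WT littermates, which overlap. With each array scaled to its 75th percentile the difference was 0.11, or 0.27 relative to the median of all genes, which that scaling placed at -0.16. With the authors' processed values it was 0.16 and the genotypes overlapped.

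Cldn23, a less studied claudin of the gut epithelium, gave the smallest p of the set. Probe mMC011068 read 12.24 and 12.77 in villin-TLR4, against 11.86, 11.20 and 11.44 in WT littermates. Every villin-TLR4 value was above every WT littermate value, and the smallest gap was between the samples numbered 1. Cldn23 averaged 12.51 ± 0.38 in villin-TLR4 and 11.50 ± 0.34 in WT littermates, giving a difference of 1.01 ± 0.31 (SE; 2.01-fold) with a 95% interval of 0.26 to 1.75. Its unadjusted p was 0.0157 and its adjusted p 0.87 (limma). The difference was at least 0.74 in each of the 16 alternative analyses and had an adjusted p of at least 0.295 there. In the authors' processed values the difference was 0.93, but WT littermate replicate 1 stood above villin-TLR4 replicate 1, so the genotypes overlapped. An exact two-sided permutation test over the 10 splits of the arrays gave p = 0.1 for Cldn23 and for Cldn3. This is the smallest p that 2 against 3 samples allow, and the same test gave at least 0.3 for the other members. Neither gene overlapped between the genotypes in the main normalisation, so this p mostly restates that order.

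Cldn7 and Cldn8 differed by less than their spread. Cldn7, a claudin that also lies along the lateral membrane, read 14.85 and 15.11 in villin-TLR4 and 14.59, 15.28 and 14.96 in WT littermates. Its difference was 0.04 ± 0.29 (SE; limma adjusted p = 0.981), with a 95% interval of -0.65 to 0.73. Scaling to the 75th percentile turned it to -0.39, with villin-TLR4 below WT littermates on every array, so its sign follows the normalisation. Cldn8, a sealing claudin of the distal colon and kidney, read 10.16 and 9.57 in villin-TLR4 and 9.85, 10.30 and 9.21 in WT littermates on probe mMC013254. The villin-TLR4 values fell inside the range of the WT littermates, and the difference was 0.08 ± 0.38 (SE; limma adjusted p = 0.97), with an interval of -0.85 to 1.01. The second probe, mMA033032, gave 0.21. The 5 measured markers of the distal hindgut, of 8 listed, summed to 3546 and 1851 for villin-TLR4, against 8383, 2237 and 1633 for WT littermate replicates 1 to 3, so arrays of 1 genotype differed in this list as well.

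The strand protein and the scaffold both overlapped between the genotypes. Ocln read 9.14 and 8.98 in villin-TLR4, against 8.72, 9.28 and 9.07 in WT littermates. Its span of 0.55 was narrower than the median of 0.85 over all genes, and its difference was 0.04 ± 0.26 (SE; limma adjusted p = 0.98), with an interval of -0.59 to 0.67. Tjp1 read 9.97 and 9.51 in villin-TLR4, against 10.22, 10.35 and 9.82 in WT littermates. WT littermate replicate 3 fell between the villin-TLR4 arrays and the other WT littermates were above them. Tjp1 averaged 9.74 ± 0.33 in villin-TLR4 and 10.13 ± 0.28 in WT littermates, giving a difference of -0.39 ± 0.28 (SE; limma adjusted p = 0.87), with an interval of -1.07 to 0.30. Among the members, Tjp1 alone was below 0 in the main fit and in all 16 alternatives, but single arrays set its size: it was -0.16 without villin-TLR4 replicate 2, the male, and -0.63 without villin-TLR4 replicate 1.

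**Figure D3:**
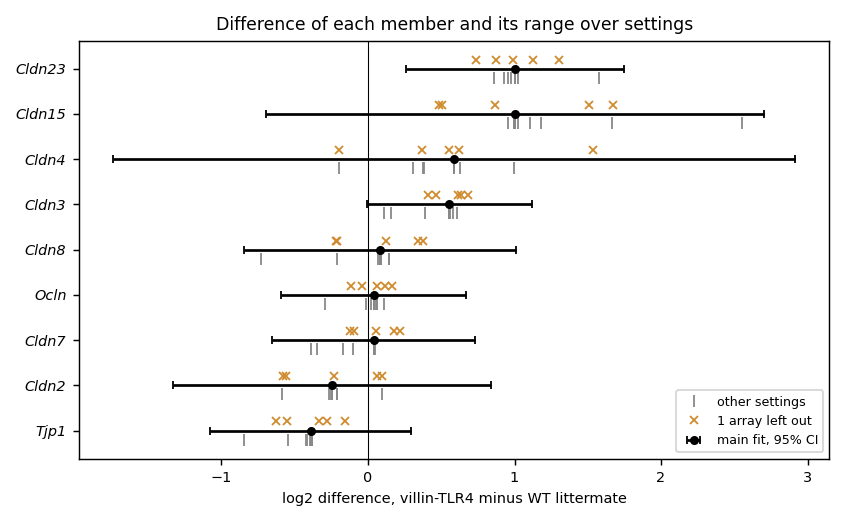
The x axis gives the log2 difference, villin-TLR4 minus WT littermate, of each member, with the main fit and its 95% interval in black, fits without 1 array as crosses and other settings as ticks. Only the interval of Cldn23 leaves out 0, that of Cldn3 reaches -0.01, and those of Cldn4 and Cldn15 are the widest.

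The scans fell on 3 days, and only 1 held both genotypes, villin-TLR4 replicate 2 (male) and WT littermate replicate 2 (female). Within that day, with 1 array of each, the difference was 2.55 for Cldn15, 1.58 for Cldn23, 1.0 for Cldn4 and 0.58 for Cldn3. It was -0.17 for Cldn7, -0.29 for Ocln, -0.59 for Cldn2, -0.73 for Cldn8 and -0.84 for Tjp1. These values have no replicate check.

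Other junction genes were taken from lists, and in each list 0 members passed over all genes in either direction. Of 17 other claudins 7 were measured, 2 with a mean above 0 and 5 below, with a median of -0.21. Cldn5, the claudin of blood vessels, read 9.27 and 9.17 in villin-TLR4 and 9.04, 8.85 and 8.21 in WT littermates, giving a difference of 0.52 ± 0.31 (SE). The 7 measured endothelial markers, of 8 listed, summed to 3253 and 3082 in villin-TLR4 and 3194, 3079 and 2670 in WT littermates. The sum was lowest on the array where Cldn5 was lowest, but of the markers taken singly only Egfl7 was lowest there. The part of these markers in the Cldn5 values was not tested. Cldn14, known for the inner ear and kidney, read 9.43 and 9.41 in villin-TLR4 and 10.01, 7.51 and 7.61 in WT littermates. Like Cldn4, it was highest on WT littermate replicate 1 and low on replicates 2 and 3, and its difference of 1.05 ± 0.75 became 1.86 when replicate 1 was left out of the mean. For genes other than the 9, values without that array are differences of means of the same normalised values. Cldn10, a claudin of several ion-transporting epithelia, was found on 2 WT littermate arrays and on no villin-TLR4 array, and no fold is given because its WT littermate mean was below the floor set by probes that were found.

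Of 29 other tight junction genes 24 were measured, 16 above 0 and 8 below, with a median of 0.12. Here 6 did not overlap with villin-TLR4 above and 1 with villin-TLR4 below, beside 12.6% and 12.9% of all genes. Prkcz, the atypical protein kinase C of the apical polarity complex, read 10.50 and 10.40 in villin-TLR4, against 9.27, 9.31 and 9.65 in WT littermates, and its difference was 1.04 ± 0.24 (SE; limma unadjusted p = 0.00431, adjusted p = 0.87). Tjp3, which encodes the scaffold ZO-3, read 12.55 and 12.27 in villin-TLR4, against 11.70, 11.69 and 11.87 in WT littermates, giving a difference of 0.66 ± 0.23. Patj, a scaffold of the Crumbs polarity complex, gave 0.66 ± 0.33, and 0.40 without WT littermate replicate 1. That array was the lowest for 5 of the 6 genes that did not overlap upwards, the exception being Tjp3.

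**Figure D4:**
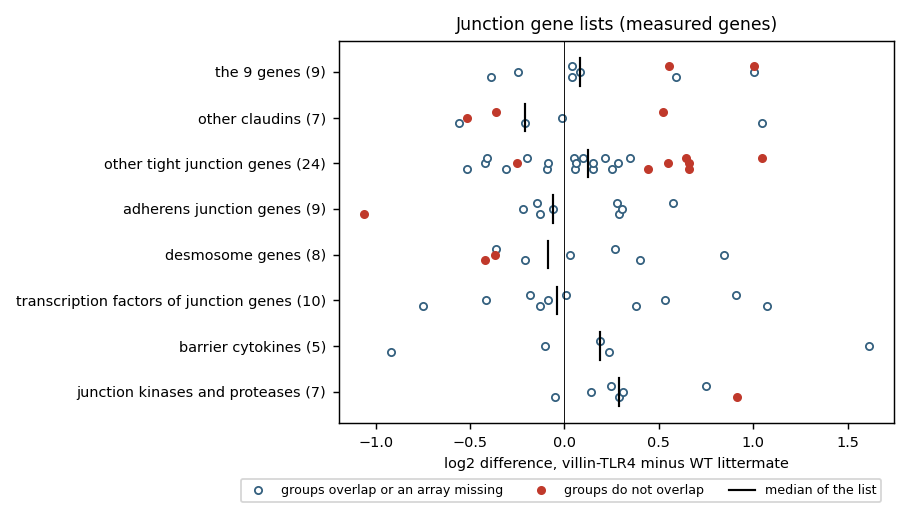
Each point is a measured gene placed by its log2 difference, villin-TLR4 minus WT littermate, in 8 lists with the number measured in brackets; filled points mark genes whose groups do not overlap and the bar marks the list's median. The medians lie between -0.21 for other claudins and 0.29 for junction kinases and proteases.

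Adherens junction genes, which hold cells together below the tight junction, were spread around 0, with 4 of 9 measured above it and a median of -0.06. Nectin1, an adhesion molecule of these junctions, read 7.62 and 8.31 in villin-TLR4, against 9.27, 9.09 and 8.71 in WT littermates, giving a difference of -1.06 ± 0.31 (SE; limma unadjusted p = 0.0136, adjusted p = 0.87). Ctnnd1, the p120 catenin, gave 0.57 ± 0.53, and 0.04 without WT littermate replicate 1, where it was lowest. Of 8 measured desmosome genes 4 lay above 0, and the median was -0.09. Perp, a membrane protein of desmosomes, gave -0.37 ± 0.24 and plakophilin Pkp2 0.40 ± 0.28.

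Among the 10 measured transcription factors of junction genes, 5 lay above 0. Klf4, a factor of differentiated surface epithelium, read 13.36 and 13.52 in villin-TLR4, against 12.505 and 12.22 for the 2 WT littermate samples that gave a value, since its spot on replicate 1 was marked as bad. Its difference was 1.07 ± 0.28 (SE; limma unadjusted p = 0.00984, adjusted p = 0.87). Snai1, the repressor whose motif was searched above, gave -0.75 ± 0.48 and stood highest on WT littermate replicate 1, without which the difference was -0.29. Of 8 cytokines that act on barrier function 5 were measured. Tnf read 8.999 and 9.96 in villin-TLR4 and 9.95, 6.83 and 6.81 in WT littermates, giving a difference of 1.61 ± 0.98, and of 2.66 without WT littermate replicate 1. Its spots were found on every array, but 6.83 and 6.81 lie below 7.04, the floor set by found probes in villin-TLR4. The sizes of these Tnf differences are therefore uncertain. Il6 was found on no villin-TLR4 array and read 8.98, 6.38 and 6.34 in WT littermates, and no fold is given because only WT littermate replicate 1 stood above the floor set by probes that were found. The list of junction kinases and proteases also held Rab13 and Arhgef2, which are neither, and 6 of its 7 genes lay above 0. Prss8, a membrane-bound serine protease of epithelia, gave 0.91 ± 0.36 (SE; limma unadjusted p = 0.0438, adjusted p = 0.87), and the related protease St14, also without a value on WT littermate replicate 1, gave 0.31 ± 0.26.

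For members found on every array and spanning at least 1 on the log2 scale, the genes of most similar pattern were taken by Pearson's r over the 5 arrays, among 3078 named genes. For Cldn23 they were Ddit4 (r = 0.99), Depp1 (0.987) and Dlk1 (0.985), and for Cldn4 Rras (0.995), Apobec1 (0.992) and Mmp23 (0.988). Cldn15 was closest to Ddah1 (0.992), 1810065E05Rik (0.991) and Dlgap5 (0.988). Cldn2 was closest to the prostaglandin-degrading enzyme Hpgd (0.978), Ptprr (0.976) and the brush border protease Mep1a (0.972), and Cldn8 to Aebp1 (0.974), Tnnt2 (0.934) and Ginm1 (0.931). These values describe 5 arrays that share 1 normalisation, and with so few points and so many candidates high values are easily reached.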

How the data were processed

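Colon total RNA was copied into cRNA carrying biotin and stained with a single dye, per the labels' protocols. The deposited intensities at 635 nm were read with GenePix Pro 4.1.1.4 on a 4000B scanner and not normalised, per the file headers. The deposited flag score marks spots as found, not found, absent or bad by the convention of that software. The authors also deposited a processed value per probe, a linear ratio to a level that stays unknown. Its columns had medians of 0.98 to 1.18. With each probe centred on its mean, they correlated with the normalised scanner values at 0.947 to 0.983. Single genes could differ: Cldn3 and Cldn7 were highest on WT littermate replicate 1 in the authors' values and lowest there in the normalised scanner values. The column of that array held a value for 9000 of 15308 probes, against 14429 to 15027 for the others. The genome build behind the array's probes: not given in the sources used here.

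With limma 3.58.1 (R 4.3.3), the normexp method with an offset of 50 corrected median foreground for median background, bad spots were set to missing, 3802 control spots were left out, and gene probes were quantile normalised on the log2 scale. Probes were named through a RefSeq gene table of GRCm38.p6, which named 23071 probes and left 12007 unnamed. Probes found on fewer than 2 arrays were left out, and the brightest stood for its gene. Two-sided limma tests (lmFit, eBayes) compared the genotypes, p-values were adjusted by Benjamini-Hochberg across every gene or unnamed probe, and 0.05 was the threshold. Precision is limited by the number of arrays. The labels do not say that samples of a genotype came from separate mice, apart from the sexes of the villin-TLR4 samples, so the p-values reflect sample-to-sample spread that may be technical.

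The members and lists were chosen with earlier results of these data known. The text names all members and, from each other list, the 2 or 3 genes with the smallest p. The 3 genes most like a member in pattern were named too. Genes outside these lists, and neutrophil, epithelial, endothelial, small intestinal, exocrine pancreas and distal hindgut markers, stand beside the results they touch. Smooth muscle and squamous marker lists were also measured. Smooth muscle genes (7 on every array) summed to 73579 and 51910 in villin-TLR4 and 17601 to 74311 in WT littermates, and squamous genes (2) to 379 and 258 in villin-TLR4, against 249 to 1841 in WT littermates. The fit was tested on simulated data. Alternatives were no background correction or plain subtraction, 75th percentile scaling, cyclic loess, no filter or probes found on every array, the mean of a gene's probes, eBayes with trend and robust options, replicate number or scan day as a block, each array left out, and the authors' values.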

Additional observations from a re-analysis of the deposited data

How the results depend on the processing

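Each member was recomputed under 16 alternatives. No member passed the threshold in any of them. Of 144 recomputed differences 125 kept their direction and side of the threshold, among them all of Cldn3, Cldn15, Cldn23 and Tjp1. The filter settings and the eBayes options gave every member the same difference as the main fit. So did the mean of a gene's probes for members with a single kept probe. The count of 125 therefore includes differences that the setting did not alter. Differences reversed under scaling to the 75th percentile for Cldn7 (-0.39) and Ocln (-0.016), under cyclic loess for Cldn7 (-0.10), with the authors' processed values for Cldn7 (-0.34), and in the fit blocked by scan day, where 1 day held both genotypes, for Cldn7 (-0.17), Cldn8 (-0.73) and Ocln (-0.29); the Ocln value under percentile scaling carries that scaling's shift of -0.16 over all genes and is 0.14 relative to it, while Cldn7 is -0.23 relative to it; the cause of the others was not tested. Without each array in turn, Cldn2 ranged from -0.58 to 0.10, Cldn4 from -0.20 to 1.53, Cldn7 from -0.12 to 0.22, Cldn8 from -0.22 to 0.37, Ocln from -0.11 to 0.17 and Tjp1 from -0.63 to -0.16. The count of all genes called was 0 in the main fit (730 at an unadjusted p under 0.05) and 0 in every fit without 1 array, but 4 with scan day as a block and 20 with the replicate number as a block. Whether samples with the same number belong together is not known. Deviations of same-numbered samples from their group means correlated at -0.15 and -0.21. The deviations of the 2 villin-TLR4 arrays mirror each other by construction, so these correlations cannot decide it. The replicate block turned Cldn2 to 0.10, Cldn4 to -0.20 and Cldn8 to -0.21 and changed no member's call. All members had a probe found on all 5 arrays.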
